A study of Mus musculus with 6 samples.

Results

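The MHC class II genes and their regulator Ciita were examined in liver RNA of mice with and without an active IRF3 allele. The 7 genes were chosen by name: the class II chains H2-Aa, H2-Ab1 and H2-Eb1, the peptide exchange factor H2-DM with its chains H2-DMa and H2-DMb1, the invariant chain Cd74, and Ciita. All 7 have a row among the 20894 genes of the deposited table, and 6 of them were among the 10802 genes tested. All animals carried the Irf3LSL-2D allele, in which a stop cassette flanked by lox sites precedes a form of the transcription factor IRF3 made to be constitutively active. The IRF3-2D group (3 liver samples) received AAV8-TBG-Cre, an adeno-associated virus with Cre recombinase under the hepatocyte promoter TBG, and the Ctrl group (3 liver samples) received AAV8-TBG-GFP, with a green fluorescent protein in place of Cre. Both groups were given ethanol at 3 g/kg into the peritoneum and livers were taken 2 h later, so no sample is free of ethanol. No label states strain, age or sex. The groups differ in Cre and GFP as well as in the allele, and these cannot be told apart.

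MHC class II molecules are pairs of an alpha and a beta chain that carry peptides from endocytosed proteins to the cell surface, where CD4 T cells read them. The invariant chain, encoded by Cd74, fills the groove of new pairs and guides them to endosomes, cathepsins degrade it there, and H2-DM then exchanges its last fragment for peptide. Ciita, the class II transactivator, binds no DNA itself and acts through factors that sit on conserved X and Y boxes of class II promoters, while its relative Nlrc5 does the same for class I genes. In liver, class II is known mainly from dendritic cells, B cells, Kupffer cells and sinusoidal endothelium, cells in which the TBG promoter is not expected to be active, and Ciita is classically switched on by interferon gamma.

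Libraries held 12054096 to 14830629 estimated counts. The scaling factors from TMM, a method that equalises typical genes between libraries, ran from 0.822 to 0.879 for the controls and from 1.12 to 1.23 for the IRF3-2D libraries. Irf3 checked the labels, with 521, 552 and 772 counts in Ctrl and 1816, 1569 and 2084 in IRF3-2D. Its log2 fold change was 1.27 (SE 0.16, edgeR adjusted p = 0.0015). The 10 tested hepatocyte markers included Alb, the gene of serum albumin, at 682221 to 1765190 counts. Of these 10 markers 6 were called lower, among them Alb (2.33-fold), Apob (2.29-fold) and Serpina1a (1.85-fold), and 1 higher, Ttr (1.79-fold), and with library totals alone as scaling 3 were lower and 2 higher. With TMM scaling 13.1% of all tested genes were called lower and 13.2% higher. Some broadly expressed genes stood close to 0 in all libraries (Ep300 at 1 to 7 counts, Creb1 at 0 to 12, the macrophage marker Cd68 at 0 to 2), so a low value in this table need not mean low expression.

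No class II member was called in either direction between IRF3-2D and Ctrl liver. Of the 6 tested members 0 were called higher and 0 lower by edgeR at an adjusted p under 0.05, where 13.2% of all tested genes were called higher, 13.1% lower and 26.3% in either direction. None of the 6 passed an unadjusted p of 0.05, which 38.5% of tested genes did, and limma-voom and DESeq2 called 0 as well. The median log2 fold change of the 6 was 0.14, beside 0.03 for all tested genes. In none of the 6 did the groups separate, whereas the values of the groups were fully separate for 44.9% of tested genes. Leaving out Ctrl replicate 1 gave 2 calls, described with that library further on.

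The presenting chains come first. H2-Ab1 (ENSMUSG00000073421, chromosome 17, 34257689 to 34269419, plus strand on GRCm38) encodes the beta chain of the I-A molecule. Its levels were 42.6, 18.3 and 21.1 CPM (counts scaled to library size and by TMM) in Ctrl and 25.4, 33.0 and 29.2 CPM in IRF3-2D. The 3 IRF3-2D values lay inside the range of the Ctrl values, whose replicate 1 was the highest of all. Means were 27.4 ± 13.3 and 29.2 ± 3.79 CPM (SD, n = 3 each). The log2 fold change was 0.09 (SE 0.31, edgeR adjusted p = 0.85). Its 95% interval ran from -0.64 to 0.82, or from 0.644-fold to 1.77-fold.

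H2-Eb1 (ENSMUSG00000060586, chromosome 17, 34305867 to 34316674, plus strand) encodes the beta chain of the I-E molecule. It stood at 19.8, 9.93 and 5.47 CPM in Ctrl and 18.9, 16.8 and 13.9 CPM in IRF3-2D. Here too every IRF3-2D value fell between the lowest and the highest Ctrl value. The log2 fold change was 0.50 (SE 0.42, 95% interval -0.49 to 1.49, edgeR adjusted p = 0.43), the largest among the 6. H2-Aa (ENSMUSG00000036594, chromosome 17, 34282744 to 34287823, minus strand), the alpha chain that pairs with the product of H2-Ab1, was listed at 0 in all 6 libraries, next to 218 to 522 counts for H2-Ab1. Only 0.833% of its 31-base words occur in transcripts of other genes. With nothing listed for it, H2-Aa could not be tested.

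Cd74 (ENSMUSG00000024610, chromosome 18, 60803848 to 60812652, plus strand), the invariant chain, stood at 27.9, 13.5 and 14.0 CPM in Ctrl and 16.5, 16.9 and 15.7 CPM in IRF3-2D. The IRF3-2D libraries were close together and above Ctrl replicates 2 and 3, and Ctrl replicate 1 was above all of them. The log2 fold change was -0.17 (SE 0.28, 95% interval -0.84 to 0.50, edgeR adjusted p = 0.69), so its interval ended at 1.41-fold on the upper side.

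**Figure D1:**
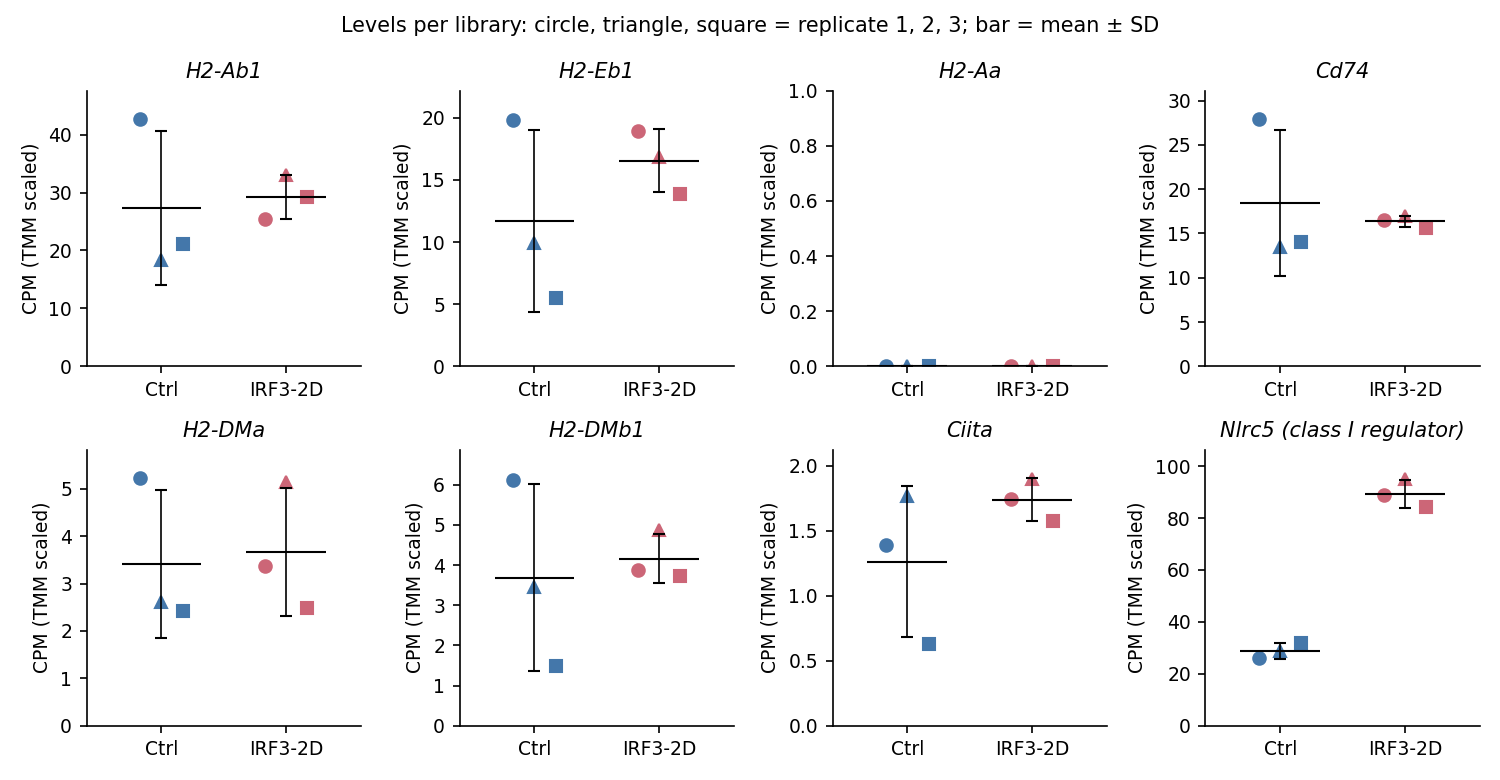
TMM-scaled CPM of the 7 class II members and of Nlrc5 in each library (y axes start at 0), with circles, triangles and squares for replicates 1, 2 and 3, and lines for the mean and SD of 3 libraries. Ctrl replicate 1 is the highest library for 5 members, H2-Aa is at 0 throughout, and Nlrc5 alone of the 8 panels separates the groups.

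The peptide exchange factor gave the same picture at lower levels. H2-DMa (ENSMUSG00000037649, chromosome 17, 34119541 to 34139101, plus strand), its alpha chain, stood at 5.23, 2.61 and 2.42 CPM in Ctrl and 3.36, 5.15 and 2.49 CPM in IRF3-2D. Each group held high and low libraries, and the log2 fold change was 0.10 (SE 0.44, 95% interval -0.93 to 1.13, edgeR adjusted p = 0.89). H2-DMb1 (ENSMUSG00000079547, chromosome 17, 34153072 to 34160230, plus strand), its beta chain, stood at 6.13, 3.45 and 1.48 CPM in Ctrl and 3.88, 4.88 and 3.74 CPM in IRF3-2D. The IRF3-2D values again lay within the Ctrl range (log2 fold change 0.18, SE 0.49, 95% interval -0.98 to 1.33, edgeR adjusted p = 0.82). H2-DMb1 shares 31.4% of its 31-base words with other genes, chiefly its neighbour H2-DMb2, so how reads fell between these copies is uncertain.

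Ciita (ENSMUSG00000022504, chromosome 16, 10480059 to 10528418, plus strand) had 17, 21 and 8 counts in Ctrl and 27, 28 and 24 in IRF3-2D. As levels these were 1.39, 1.77 and 0.625 CPM against 1.75, 1.90 and 1.57 CPM. Ctrl replicate 2 was above IRF3-2D replicates 1 and 3, so the groups overlapped. The log2 fold change was 0.46 (SE 0.47, 95% interval -0.64 to 1.57, edgeR adjusted p = 0.51). As a fold the interval ran from 0.643 to 2.96, so changes of that size are not excluded.

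Per kilobase of the longest annotated transcript, H2-Ab1 had the highest level of the members in both groups, at 22.6 CPM per kb in Ctrl and 24.1 in IRF3-2D. Cd74 followed with 13.1 and 11.6 CPM per kb, and H2-Eb1 with 7.02 and 9.92. This order, H2-Ab1 over Cd74 over H2-Eb1, held in each of the 6 libraries, although over libraries the ranges of Cd74 and H2-Eb1 overlapped in both groups and those of H2-Ab1 and Cd74 in Ctrl. H2-DMb1 (2.63 and 2.97 CPM per kb) and H2-DMa (1.71 and 1.83) came next and changed places in Ctrl replicate 3, at 1.06 and 1.21. Of the 6 tested members Ciita was lowest, at 0.210 and 0.290 CPM per kb, below H2-DMa in every library. The transcripts actually counted are not known, so these per-length levels are approximate.

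The remaining class II genes had low counts. H2-DMb2, the second beta chain gene of H2-DM, had 33, 40 and 34 counts in Ctrl and 43, 42 and 41 in IRF3-2D, a log2 fold change of -0.07 (SE 0.29, 95% interval -0.76 to 0.62, edgeR adjusted p = 0.89). H2-Oa, the alpha chain of the H2-DM inhibitor H2-O, had 4 to 13 counts per library and was not tested. H2-Ob, its beta chain, was at 0 in the 3 Ctrl libraries and at 6, 3 and 0 in IRF3-2D, and H2-Eb2 was at 6, 3 and 4 in Ctrl and 1, 2 and 2 in IRF3-2D. These counts are at or near the 3-count floor of 0.194 to 0.252 CPM in a library, and no difference could be read from them.

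The promoters are shown because the class II genes share a control element that class I promoters use in another form. RefSeq promoters on GRCm38.p6, from 250 bases before to 50 after a start, were on hand for 4 of the 7 members and for all 4 other class II genes, and not for H2-Ab1, Cd74 and Ciita. The letters GATTGG, the core of the Y box, were searched on both strands. So was an X box pattern chosen after these promoters had been seen, GNAAC, then any 2 bases, then ATGNTGC. The last search was for GAAA, any 2 bases and GAAA, a repeat of the kind bound by interferon regulatory factors. No match of 1 pattern overlaps a match of another in the promoters shown. These are printed 5′ to 3′ along the gene in lower case, with matches in capitals, for H2-Eb1 (chr17:34305617-34305916, plus strand), H2-DMb1 (chr17:34152941-34153240, plus strand), H2-Aa (chr17:34287774-34288073, minus strand) and, for comparison, the class I light chain gene B2m (chr2:122147437-122147736, plus strand).
H2-Eb1: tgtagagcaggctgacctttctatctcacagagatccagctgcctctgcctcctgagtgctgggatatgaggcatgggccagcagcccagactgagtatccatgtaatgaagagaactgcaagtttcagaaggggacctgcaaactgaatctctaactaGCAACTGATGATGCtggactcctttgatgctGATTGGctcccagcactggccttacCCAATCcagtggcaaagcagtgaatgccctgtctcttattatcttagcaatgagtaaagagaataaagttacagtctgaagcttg
H2-DMb1: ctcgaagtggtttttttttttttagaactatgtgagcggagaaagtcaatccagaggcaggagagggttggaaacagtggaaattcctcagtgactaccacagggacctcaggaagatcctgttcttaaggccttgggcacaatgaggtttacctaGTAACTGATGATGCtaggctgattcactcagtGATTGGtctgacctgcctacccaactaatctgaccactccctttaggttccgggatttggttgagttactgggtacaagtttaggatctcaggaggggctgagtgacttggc
H2-Aa: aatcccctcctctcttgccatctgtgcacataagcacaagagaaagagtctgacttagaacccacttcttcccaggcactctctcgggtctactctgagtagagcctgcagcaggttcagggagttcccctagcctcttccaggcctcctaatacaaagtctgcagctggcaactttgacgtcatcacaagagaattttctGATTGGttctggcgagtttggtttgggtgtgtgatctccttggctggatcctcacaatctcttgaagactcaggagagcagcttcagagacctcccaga
B2m: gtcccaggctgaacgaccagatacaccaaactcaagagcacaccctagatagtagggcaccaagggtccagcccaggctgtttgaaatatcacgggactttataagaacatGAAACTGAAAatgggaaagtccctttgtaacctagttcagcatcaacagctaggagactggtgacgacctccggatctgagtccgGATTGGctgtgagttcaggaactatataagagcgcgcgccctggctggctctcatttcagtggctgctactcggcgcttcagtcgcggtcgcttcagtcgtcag

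In H2-Eb1 the X match is GCAACTGATGATGC and in H2-DMb1 it is GTAACTGATGATGC, and 17 and 18 bases separate it from the Y match on the same strand. H2-Eb1 holds another Y match on the opposite strand. H2-Ob and H2-Eb2 hold the same pair at 15 and 17 bases. Of all 32851 promoters, 0.0396% hold the X letters, 16.1% the Y letters and 0.0122% both, which is 4 promoters, the 4 class II genes named here. The X pattern was chosen after these promoters had been seen, so that count is not independent of them. H2-Aa holds the Y letters 49 bases before its start and not these X letters, and of the 2 promoters listed for H2-DMa 1 holds the Y letters and neither the X letters. The interferon regulatory factor letters were in 3.44% of all promoters, in that of B2m as GAAACTGAAA, and in none of the 8 class II genes with a promoter entry. Among the 7 class I counterparts with a promoter entry B2m was the only 1 with the GAAA repeat, and the other 6 were called higher without it. A match describes these letters only, and a window without one says nothing of the factor.

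Class I genes, set beside the class II genes role by role, rose in the same livers. All 9 listed class I counterparts were called higher, by edgeR in the main comparison and under each of the 14 alternative settings, with a median log2 fold change of 1.37. Of all tested genes 13.2% were called higher. The 9 were listed with earlier results of these data known, so their count is not an independent result. Nlrc5, the class I transactivator, had 317, 342 and 407 counts in Ctrl and 1376, 1402 and 1284 in IRF3-2D. The groups stood well apart, with a log2 fold change of 1.63 (SE 0.10, 95% interval 1.39 to 1.87, edgeR adjusted p = 9.2e-05). H2-D1, a class I heavy chain with 26.7% of its words shared with related genes, had a log2 fold change of 1.84 (SE 0.09). The values of Tapbp, the class I peptide editor tapasin, and of Psmb8, an immunoproteasome subunit, were 1.29 (SE 0.10) and 2.01 (SE 0.08). The upper ends of the intervals of H2-Ab1 (0.82) and Cd74 (0.50) lay below the log2 fold change of each of these 9 genes, of which B2m had the smallest, 0.87. The upper ends of the intervals of the other 4 tested members, 1.13 to 1.57, did not. The class I values have errors too, and the 95% interval of B2m, 0.68 to 1.06, overlapped that of H2-Ab1 and not that of Cd74. Without Ctrl replicate 1 the log2 fold changes of H2-Ab1 and Cd74 were higher, at 0.56 and 0.25.

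**Figure D2:**
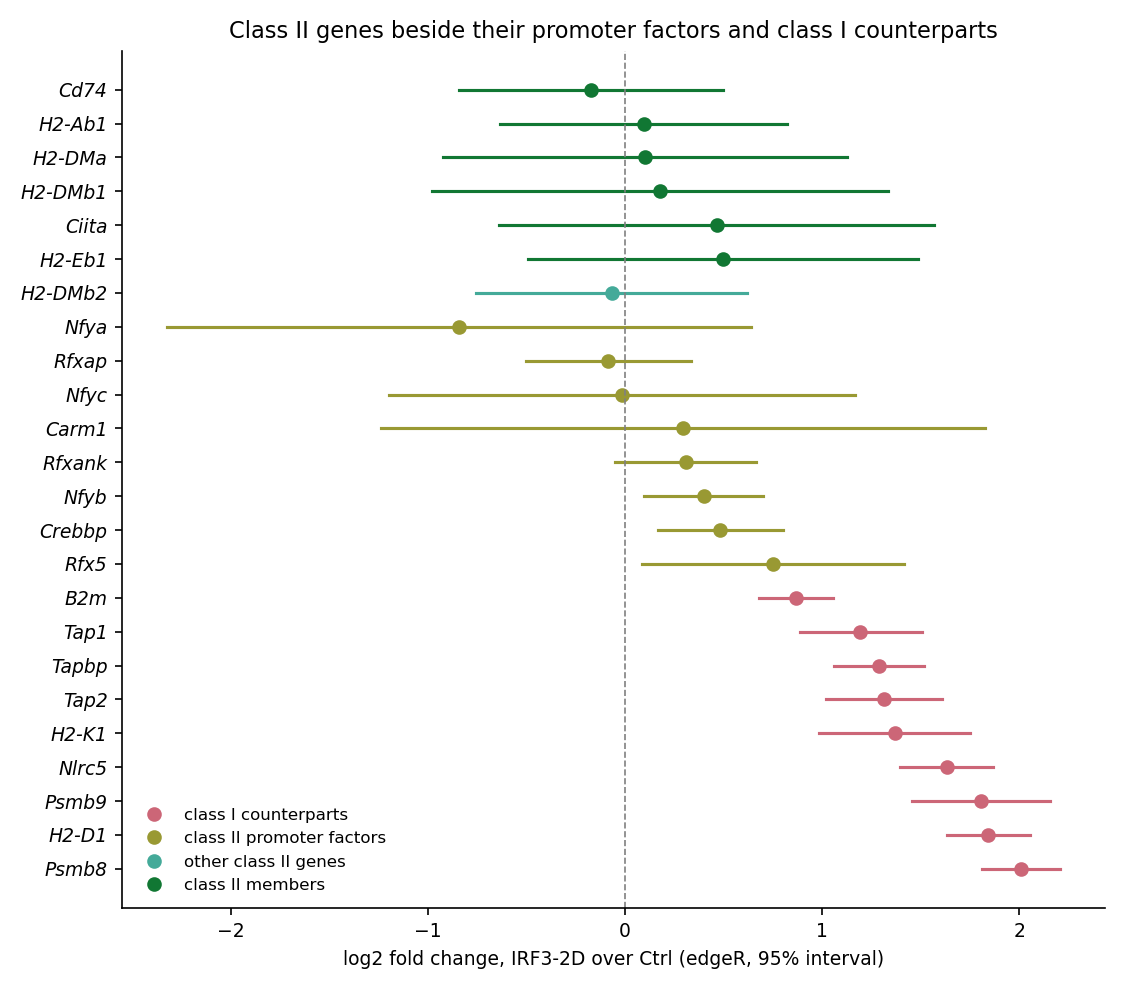
Log2 fold changes of IRF3-2D over Ctrl (edgeR, x axis) with 95% intervals for the tested class II members, H2-DMb2, the class II promoter factors and the class I counterparts. Every interval of a class II member crosses 0 and every class I interval lies above 0.

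Whether a class I gene and its class II counterpart changed unequally was tested on their ratio within each library, which does not depend on scaling. H2-D1 had 14.3, 34.3 and 33.5 counts for each count of H2-Ab1 in Ctrl and 91.4, 70.8 and 79.7 in IRF3-2D. The groups did not overlap, and the ratio was 3.15-fold higher in IRF3-2D (exact permutation test, two-sided, p = 0.1, the smallest value that 3 against 3 samples allow). For Nlrc5 to Ciita the ratios were 18.6, 16.3 and 50.9 in Ctrl and 51.0, 50.1 and 53.5 in IRF3-2D, which overlapped in Ctrl replicate 3, the library with 8 Ciita counts (2.07-fold, exact permutation p = 0.2). For Tapbp to H2-DMb1 the ratio was 1.87-fold higher and also overlapped (exact permutation p = 0.2). After Benjamini-Hochberg adjustment over the 3 ratios each exact p was 0.2, so none of these differences passed a threshold of 0.05, which this design cannot reach.

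The genes of both classes lie interleaved on chromosome 17. From the start of H2-Oa to the end of H2-Eb2 (34092340 to 34341412 on GRCm38, 249.1 kb) the table had 14 genes, of which 10 were tested and 4 called higher. Of all tested genes 13.2% were called higher and 26.3% in either direction. The 4 called higher in the region were Psmb9 (3.50-fold), Tap1 (2.29-fold), Psmb8 (4.03-fold) and Tap2 (2.49-fold), the immunoproteasome and peptide transporter genes of class I presentation. All 4 are among the 9 class I counterparts, which were listed with earlier results of these data known. They form an unbroken block between H2-DMb1 on one side and H2-Ob and H2-Ab1 on the other. None of the 5 tested class II genes around them was called, a number too small to set against the 26.3% of all tested genes. Brd2, a chromatin reader gene that overlaps H2-DMa on the opposite strand, had a log2 fold change of -1.41 (SE 0.47, edgeR adjusted p = 0.066) and was not called either. Psmb9 and Tap1 overlap on opposite strands too, and if strand was not used in counting, reads of such pairs cannot be told apart.

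**Figure D3:**
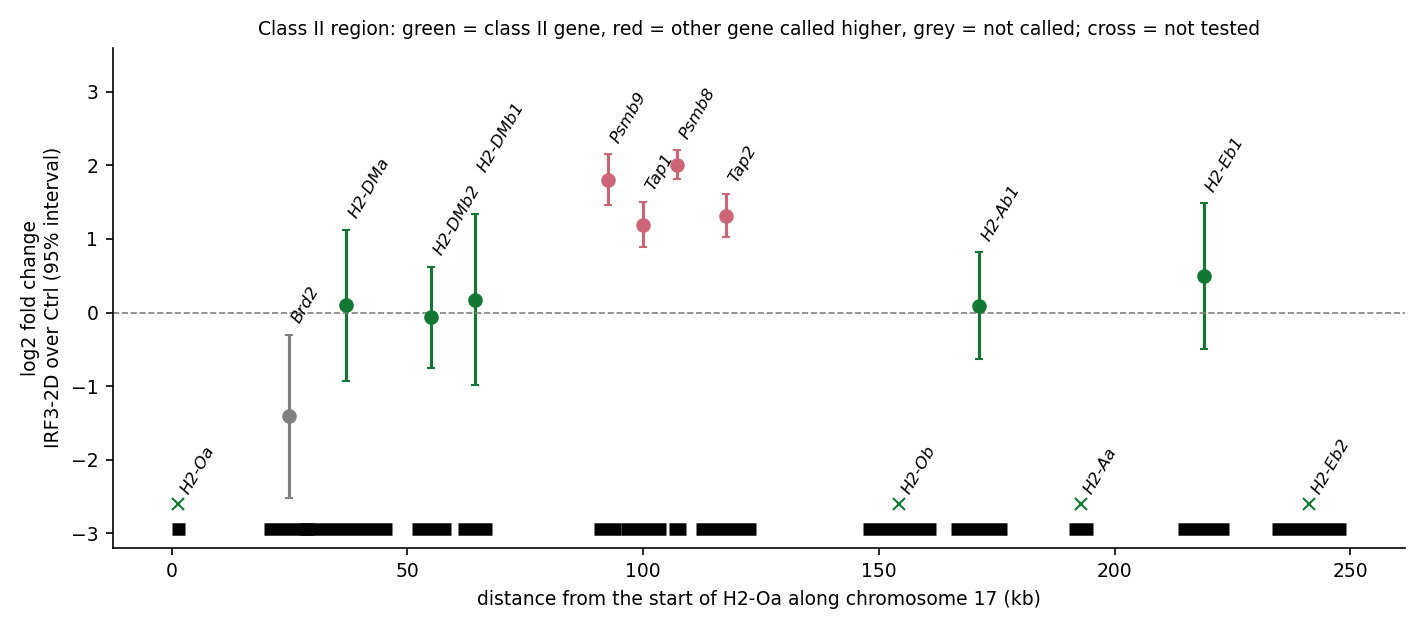
Log2 fold change of IRF3-2D over Ctrl with its 95% interval (y axis) for the 10 tested genes of the class II region against distance from the start of H2-Oa (x axis, kb), with gene bodies as black bars and untested genes as crosses. Psmb9, Tap1, Psmb8 and Tap2 stand above 0 with their whole intervals, between class II genes at -0.07 to 0.50.

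Ctrl replicate 1 stood apart from the other controls in most of the tested class II members. It was the highest of the 6 libraries for 5 of the 6 tested members, all but Ciita, where 17% of all tested genes had their highest value in it. In those 5 it was 2.04 to 2.57 times the mean of Ctrl replicates 2 and 3, and in Ciita 1.16 times. In H2-DMb2, a tested class II gene outside the members, it was 0.895 times that mean. It was at least 1.5 times both other controls in the same 5 members, a pattern found in 6.92% of tested genes. The lowest value of every member was in a control too, in Ctrl replicate 3 for 4 members and in Ctrl replicate 2 for H2-Ab1 and Cd74. The coefficient of variation was larger in Ctrl than in IRF3-2D in all 6 tested members, against 57.7% of tested genes. For H2-Ab1 it was 48.6% and 13.0%, and for Cd74 44.5% and 3.94%.

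Without Ctrl replicate 1, H2-Ab1 and H2-Eb1 were called higher in IRF3-2D liver, 2 of 6 members where 11.7% of tested genes were called higher. The log2 fold change of H2-Ab1 became 0.56 (1.48-fold, edgeR adjusted p = 0.040) and that of H2-Eb1 became 1.10 (2.15-fold, edgeR adjusted p = 0.042). Cd74 turned from -0.17 to 0.25 (edgeR adjusted p = 0.20), and H2-DMa, H2-DMb1 and Ciita stood at 0.54, 0.76 and 0.54 without a call. Leaving out any other single library gave 0 calls, and over the 14 alternatives the edgeR, limma-voom or DESeq2 adjusted p of H2-Ab1 ran from 0.040 to 1.0 and that of H2-Eb1 from 0.042 to 0.77. Which of the controls is typical of its group cannot be read from 3 libraries.

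**Figure D4:**
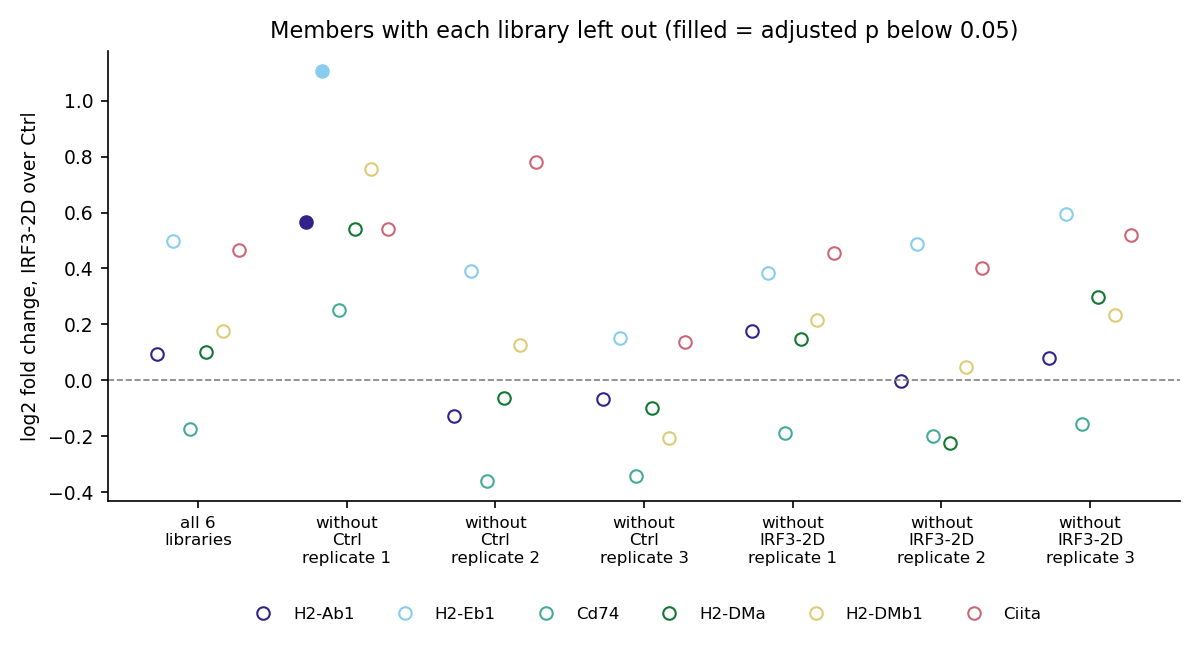
Log2 fold change of IRF3-2D over Ctrl (y axis) of the 6 tested members with all libraries and with each library left out (x axis), filled where the edgeR adjusted p was below 0.05. The 2 filled points are H2-Ab1 and H2-Eb1 without Ctrl replicate 1.

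Genes whose libraries deviated from their group means most like the average of H2-Ab1, H2-Eb1 and Cd74 were looked up among 9147 other genes, by Pearson correlation over the 6 libraries, as a description. Of these genes 3.1% had a correlation of at least 0.9, and all points share the same libraries. The top 5 were Tgtp1, Nbas, Zfp618, Vps28 and Esr1, at 0.993 to 0.999. Tgtp1, an interferon-inducible GTPase that shares 84.4% of its words with other genes and is uncertain for that reason, had 248, 95 and 92 counts in Ctrl and 2650, 2722 and 2410 in IRF3-2D. Esr1, an oestrogen receptor, had 744, 328 and 319 counts in Ctrl and 248, 269 and 218 in IRF3-2D, and was called lower (2.33-fold, edgeR adjusted p = 0.037, not called without any 1 of the IRF3-2D libraries, with library totals alone, with the replicate block or with limma-voom). Both had the same high first control, and their groups moved in opposite directions. Nbas was called higher (log2 fold change 0.45, edgeR adjusted p = 0.0095), while Zfp618 (0.40) and Vps28 (-0.10) were not called.

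Upstream of the class II promoters, counts of calls stand beside 13.2% of all tested genes called higher and 13.1% lower. Of 8 tested promoter factors 1 was called higher, near the share of all genes, and none lower, with a median log2 fold change of 0.30. With library totals alone 4 were higher, and without Ctrl replicate 1 there were 2. It was Crebbp, a histone acetyltransferase recruited by Ciita, at 27.5 ± 4.58 CPM for controls and 38.5 ± 3.27 for IRF3-2D (SD, n = 3 each). Its log2 fold change was 0.48 (edgeR adjusted p = 0.038). That call was lost without any 1 library other than Ctrl replicate 1, at 0.40 to 0.54, with upper-quartile scaling (0.46) and with the replicate block (0.49). Rfx5, a subunit of the X box factor named after its values were seen, had 100, 152 and 168 counts in Ctrl and 410, 223 and 241 in IRF3-2D, with no overlap but an edgeR adjusted p of 0.094. On the interferon gamma route to Ciita 3 of 8 tested genes were called higher and none lower, and with library totals alone 7 of 8 were higher. Irf1, a transcription factor that acts on the Ciita gene, rose 2.00-fold, Usf1, another such factor, 1.80-fold, and Spi1, a myeloid transcription factor, 2.14-fold. Spi1 was not called when Ctrl replicate 2, Ctrl replicate 3, IRF3-2D replicate 1 or IRF3-2D replicate 2 was left out, at log2 fold changes of 0.92 to 1.13. Ifng itself had 3 counts in IRF3-2D replicate 2 and 0 in the other 5 libraries.

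Downstream, the counts again stand beside 13.2% of all tested genes called higher and 13.1% lower. Of the 15 tested genes of peptide processing and class II turnover 3 were called higher and 3 lower, with a median log2 fold change of 0.09. With library totals alone 9 were higher and none lower (median 0.55). Without IRF3-2D replicate 3 there were 5 higher (5 by DESeq2 too), and 2 rather than 3 lower without any single library but Ctrl replicate 1. Ctsl, an endosomal protease, rose 1.88-fold, from a mean of 1070 ± 119 CPM to 2011 ± 78.1 CPM (SD, n = 3 per group). Ctsz, a cathepsin, rose 2.05-fold, and Sppl2a, the membrane protease that clears the last piece of the invariant chain, rose 1.75-fold. Cst3, an inhibitor of cathepsins, was 1.38-fold lower, a call lost with library totals alone. Cd9, a tetraspanin, and March8, a ubiquitin ligase, both named to complete the count, were 2.13-fold lower. Ctss, the main protease of the invariant chain in antigen-presenting cells, named after its values were seen, had 688, 487 and 490 counts in Ctrl and 1178, 1475 and 711 in IRF3-2D, with a log2 fold change of 0.72 that was not called (edgeR adjusted p = 0.10). Among 5 tested co-stimulation genes and class II receptors 1 was called, Cd274, the checkpoint ligand PD-L1, 5.35-fold higher from 37, 30 and 33 counts to 254, 263 and 143.

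Markers of the cells that usually carry class II are given beside these results, and their part in them was not tested. In bulk liver, fewer cells of a type and less RNA per cell cannot be told apart. Counts of markers called, here and below, stand beside 13.2% of all tested genes called higher and 13.1% lower. The 7 members together summed to 103, 49.5 and 45.1 CPM in Ctrl and 69.9, 78.7 and 66.6 CPM in IRF3-2D. The 17 dendritic cell markers with a row summed to 18.3 to 58.2 CPM in Ctrl and 41.9 to 70.7 in IRF3-2D, and 2 of 9 tested were called higher and none lower. These were Tlr3 (2.28-fold), a sensor of double-stranded RNA, and Wdfy4 (4.69-fold). Wdfy4 had 45, 37 and 51 counts in Ctrl and 345, 357 and 64 in IRF3-2D. Its IRF3-2D replicate 3, at 4.2 CPM, was thus close to the highest control, at 3.99 CPM. The call of Wdfy4 held when IRF3-2D replicate 3 was left out and ended when any of the other 5 libraries was, at log2 fold changes of 1.88 to 2.31. It also ended with the replicate block (1.94) and with limma-voom (1.86). The high sum of Ctrl replicate 1 came with 366 counts of Cd24a, against 35 and 73 in the other controls, and 111 of Ly6d, against 7 and 11. Without Cd24a the sums were 28.3, 15.4 and 17.5 CPM in Ctrl, replicate 1 still the highest control, and 39.5 to 64.2 CPM in IRF3-2D. Without Tlr3, Wdfy4, Cd24a and Ly6d, left out after their values were seen, the other 13 summed to 4.12 to 8.25 CPM in Ctrl and 11.01 to 11.64 CPM in IRF3-2D. The defining markers Xcr1, Clec9a and Itgax were low, at 0 to 62 counts, and none was called.

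B cell markers were scarce, with 14 rows summing to 6.49 to 13.3 CPM in Ctrl and 12.3 to 18.3 in IRF3-2D, and 0 of 5 tested were called by edgeR (0 also at an unadjusted p under 0.05), against 2 higher with library totals alone and 1 without Ctrl replicate 1. The 13.3 CPM was the sum of Ctrl replicate 1, against 7.91 and 6.49 CPM in Ctrl replicates 2 and 3. Pax5 and Bank1 were at 0 in all libraries, and the smallest p was that of Cd37 (log2 fold change 0.77, edgeR adjusted p = 0.14). The 20 Kupffer cell and macrophage markers summed to 646 to 724 CPM in Ctrl and 1037 to 1413 in IRF3-2D, so these sums separated the groups while those of the class II members did not. Of 17 tested, 5 were called higher and 1 lower, with a median log2 fold change of 0.48, against 12 higher and none lower (median 0.94) with library totals alone and 8 higher by DESeq2. Leaving out 1 library gave 2 to 9 calls higher, with 2 when Ctrl replicate 2, Ctrl replicate 3, IRF3-2D replicate 1 or IRF3-2D replicate 2 was left out and 9 when IRF3-2D replicate 3 was. Without Mpeg1, a perforin-like macrophage gene up 4.14-fold, the sums were 543 to 572 and 598 to 852 CPM. C1qb, a complement subunit, was 1.62-fold higher, Cybb, an oxidase subunit, 1.82-fold (not called in the same 4 cases that gave 2 calls), and Mertk, a receptor for dying cells, 1.63-fold lower (lost with library totals alone).

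Sinusoidal endothelial markers summed to 718 to 753 CPM in Ctrl and 481 to 634 in IRF3-2D, with 5 of 14 tested called lower and none higher. Without Ctrl replicate 2 or IRF3-2D replicate 2 there were 2 called lower, without Ctrl replicate 3, IRF3-2D replicate 1 or IRF3-2D replicate 3, or with the replicate block, 3. Their median log2 fold change of -0.37 turned to 0.09 with library totals alone, where 1 was called higher and none lower and all tested genes had a median of 0.49. Ehd3, an endothelial trafficking gene, was 1.67-fold lower, and Tie1, Ptprb and Oit3 were 1.39-fold to 1.47-fold lower. Leaving out IRF3-2D replicate 2 or 3 ended the calls of Tie1 and Ptprb, leaving out Ctrl replicate 2 or 3 those of Ptprb and Oit3, and leaving out Ctrl replicate 1 or IRF3-2D replicate 1 that of Oit3. Of 7 tested monocyte and neutrophil markers 2 were higher, Fcgr4 (2.39-fold), an Fc receptor, and Ly6c2 (8.21-fold, with 23.7% of its words shared and the call lost without IRF3-2D replicate 2, with the replicate block and with limma-voom, at log2 fold changes of 2.59, 2.88 and 2.86). Of 8 tested T, NK and innate lymphoid markers 1 was higher, the chemokine Ccl5 (7.52-fold), and Cd3g was at 0 throughout. Of 8 tested stellate cell markers 1 was lower, Reln (1.64-fold, lost with library totals alone), and Pdgfrb was at 0. None was called higher, against 1 by DESeq2, 1 without IRF3-2D replicate 3 and 2 with library totals alone. The median log2 fold change of the 8 was -0.11. Col1a1, a collagen gene named after its values were seen, was at 1.25 and not called (edgeR adjusted p = 0.061). None of 5 cholangiocyte markers was called by edgeR with all libraries (2 passed an unadjusted p of 0.05). Their median log2 fold change was -0.63, and 0.003 without Ctrl replicate 1. Krt19, Krt7, Epcam and Sox9 were at -1.56, -0.65, -0.38 and -0.63, and only Spp1 was above 0, at 1.69. Spp1, a secreted phosphoprotein, was called higher by DESeq2 and, in edgeR, with library totals alone, a mean count of at least 50, the replicate block, and without Ctrl replicate 2 or IRF3-2D replicate 3. In the same list Krt19 was highest in Ctrl replicate 1, at 148 counts against 8 and 36 in the other controls.

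**Figure D5:**
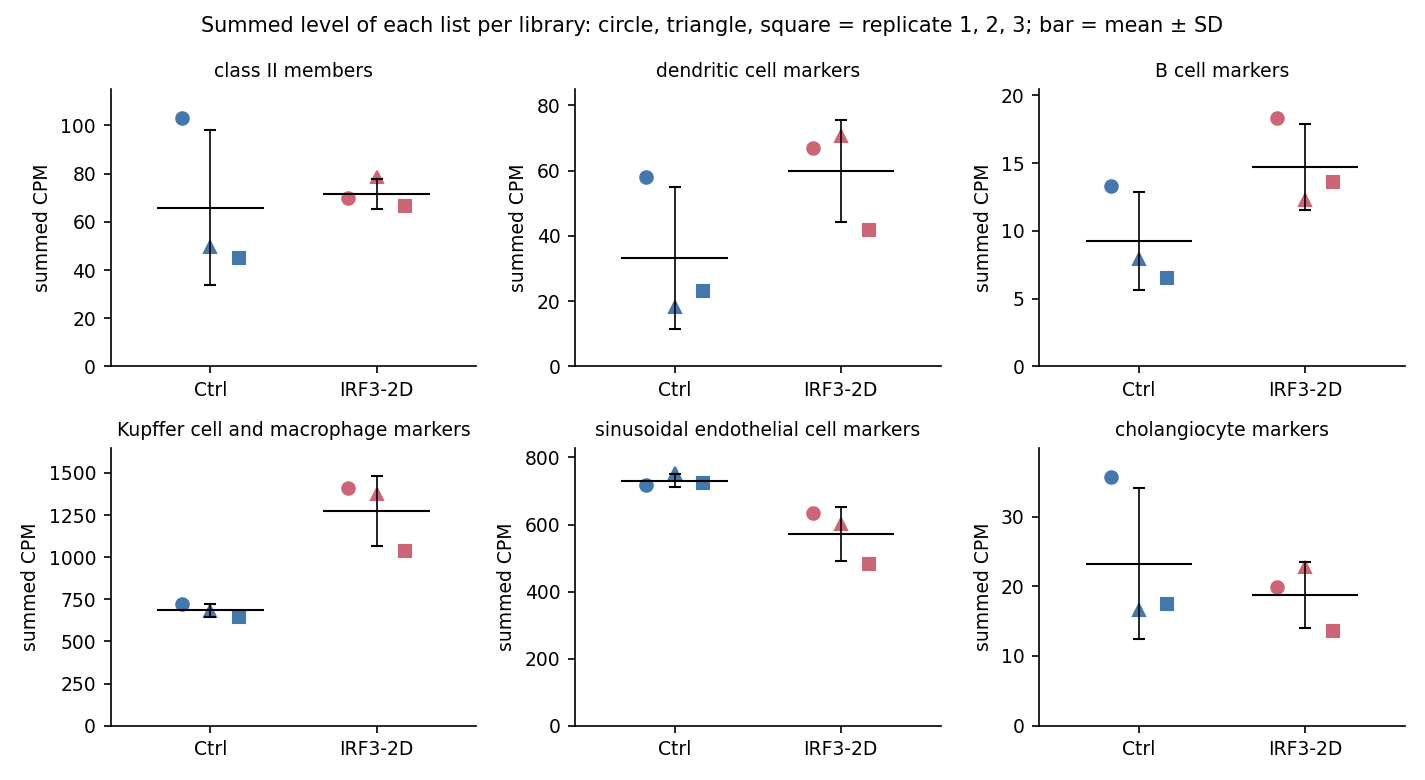
Summed TMM-scaled CPM per library (y axes start at 0) of the class II members and of 5 marker lists, with circles, triangles and squares for replicates 1, 2 and 3 and lines for the mean and SD of 3 libraries. Ctrl replicate 1 stands well above the other controls in the class II, dendritic cell, B cell and cholangiocyte panels. The Kupffer cell and macrophage sums are higher in all 3 IRF3-2D libraries.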

How the data were processed

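The authors deposited a table of estimated counts for each gene and library, from poly-A selected, strand-specific libraries per the labels' protocols. The submitters' processing notes name Salmon 1.2.1, GRCm38 and mm10 and give none of them a role; neither the gene annotation nor the strand setting of the counting is stated there. All values were whole numbers, so they were used as they stand. Groups and replicate numbers come from the sample titles, and columns were matched by library name. The labels do not say that replicates were separate mice, so the spread that p-values measure is that of these samples only and may be technical. Symbols and positions come from GENCODE M21 (20817 of 20894 identifiers matched).

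The groups were compared in edgeR 4.0.16 (R 4.3.3): filterByExpr, TMM, quasi-likelihood F-test with group as the only term, Benjamini-Hochberg over all tested genes, threshold 0.05. The standard error is the log2 fold change over the root of F, and intervals are 95%. The fit was also run on simulated counts as a check of its code, and no result given here rests on that run. The 14 alternatives were DESeq2 1.42.0, limma-voom (limma 3.58.1), RLE and upper-quartile scaling, library totals alone, no filter, a mean count of at least 50, a replicate block, and leaving out each library. Floors of 3 counts cover counting error only.

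Members and lists (class I counterparts, promoter factors, processing, interferon gamma route, co-stimulation and 9 sets of cell type markers) were chosen with earlier results of these data known. Named are all members and other class II genes, Nlrc5, the region's tested genes, up to 4 called genes of each list with the smallest adjusted p (or the smallest p where none was called), and the 5 most similar genes. Genes named outside this rule are said to be so or stand as examples of low counts or marker levels. Shared words are 31-base stretches found in transcripts of another gene.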

Additional observations from a re-analysis of the deposited data

How the results depend on the processing

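The count of members called was 0 higher and 0 lower under all alternatives except 1: leaving out single libraries gave 0 to 2 called higher, the 2 being H2-Ab1 and H2-Eb1 without Ctrl replicate 1. Over all genes, 1426 were called higher and 1418 lower. Scaling by library totals alone gave 4500 higher and 571 lower, and the median of all genes moved from 0.03 to 0.49. There H2-DMb2 and Cd74 turned to 0.39 and 0.27 on the log2 scale without a call, and Vps28 turned to 0.35 with one. Leaving out 1 library gave 851 to 1312 higher and 920 to 1363 lower. The directions of H2-Ab1, H2-DMa, H2-DMb1 and Cd74 changed when single libraries were left out, so these data do not settle their signs. H2-Eb1 and Ciita stayed above 0 under every alternative that tested them, at 0.15 to 1.10 and 0.14 to 0.93. Their intervals with all libraries still included 0. H2-Ab1 turned to -0.13, -0.07 and -0.00 without Ctrl replicate 2, Ctrl replicate 3 and IRF3-2D replicate 2. Its range was -0.13 to 0.56, the upper end being the call without Ctrl replicate 1. H2-DMa turned to -0.06, -0.10 and -0.22 without the same libraries, with a range of -0.22 to 0.54. H2-DMb1 ran from -0.20 (without Ctrl replicate 3) to 0.76, Cd74 from -0.36 to 0.25, and H2-DMb2 from -0.13 to 0.047 (without Ctrl replicate 2). With the replicate block 1038 genes were higher, 1128 lower and no member was called. Same-numbered libraries deviated together little (correlations 0.096, -0.034 and 0.045), and not every library correlated best with its own number, so the numbers were not taken as pairs. A filter at a mean count of 50 left 4 members, without H2-DMa and Ciita. Depth limits the scarce members, Ciita at 8 to 28 counts among them, and H2-Aa could not be tested.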
